A study of Homo sapiens with 16 samples.

Results

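Single SK-N-AS cells were divided by the share of their counts that came from FTL, the gene of the ferritin light chain. A cell needed a total of at least 1500 counts. It was called FTL-rich when FTL made up 0.8% or more of its total, and FTL-poor when FTL made up 0.4% or less. Of 603 cells in the table, 431 reached the minimum total. Among these, 90 cells (20.9%) were FTL-rich, 212 cells (49.2%) were FTL-poor and 129 cells lay between the limits.

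SK-N-AS is an established human neuroblastoma line, grown here without treatment, harvested and sorted as single cells into plates for MARS-seq, which counts the 3′ ends of polyadenylated RNA. All cells therefore share the line, and no treatment or genotype in the labels separates FTL-rich from FTL-poor cells. Whether cultures, plates or handling differed between them cannot be told from the table. The labels give 16 samples, but the names of the cell columns are barcodes that carry no sample, so the table is 1 sample with no replicate at that level. No p-value is given. Intervals are exact 95% intervals, which for ratios and levels cover counting error only. For shares of cells they treat the cells as independent draws, and no interval covers a spread between samples.

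Ferritin is a hollow shell of light and heavy chains in which cells store iron. The heavy chain, FTH1, oxidises the incoming iron, and the light chain helps the mineral core to form. Both transcripts carry an iron-responsive element, a hairpin near the 5′ end to which iron regulatory proteins bind when iron is scarce, which blocks translation. The transcription factor NRF2, normally held down by KEAP1, is known to drive transcription of both chains together with genes for detoxification and for the supply of NADPH.

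The hairpins of both chains are shown because they are the sequence that couples FTL and FTH1 to iron. They were read from GENCODE 29 transcripts (GRCh38), and capitals mark the loop motif CAGTG.
FTL (transcript FTL-201, chr19:48965338-48965360, plus strand): ttgcttcaaCAGTGtttggacgg
FTH1 (transcript FTH1-201, chr11:61967577-61967599, minus strand): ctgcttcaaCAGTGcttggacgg
Over these 23 bases the elements differed at 2 positions, T1C and T15C, counted from the 5′ end of the window with the FTL base first. The element acts on translation, which counts of RNA do not measure.

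FTL itself was used to choose the cells, so its values are a description. The FTL share ran from 0.802% to 5.95% with a median of 1.13% in FTL-rich cells, against 0% to 0.3995% with a median of 0.266% in FTL-poor cells. In counts, FTL-rich cells held 13 to 164 FTL counts (median 33), and FTL-poor cells held 0 to 43 (median 7). After each cell was thinned at random to 1500 counts, the values were 10 to 93 (median 18) in FTL-rich cells and 0 to 9 (median 4) in FTL-poor cells. Summed over cells, FTL reached 14187 counts per 1000000 counts (CPM) in FTL-rich cells, 5524 CPM between the limits and 2591 CPM in FTL-poor cells. The table row for FTL also carries a second transcript name, and the files do not separate them. Of the FTL pseudogene FTLP10, 0 counts were found in the 431 cells.

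The share had no gap at either limit. The cells nearest the upper limit stood at 0.802% inside it and 0.798% outside it. At the lower limit they stood at 0.3995% inside and 0.4004% outside. Within 0.1 percentage point of the upper limit lay 44 cells, and within the same distance of the lower limit lay 124 cells. Over thinned cells the variance of FTL was 10.8 times its mean, and 1 of 494 genes had a higher ratio.

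The counts of each cell were also split at random into 2 equal parts, the cells were chosen on one and FTL was read in the other. The 91 FTL-rich and 203 FTL-poor cells so chosen differed by 2.12 on the log2 scale, with 13741 CPM in FTL-rich cells and 3152 CPM in FTL-poor cells. The difference was also present in the part of the counts that had not been used to choose the cells. Both parts hold FTL counts of the same cells. Whether a count is a molecule or a read is not given. If counts are reads, copies of the same molecule could fall in both parts, so their independence cannot be told.

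Depth was similar in both. The median total was 2415.5 counts in FTL-rich cells, 2385 between the limits and 2617.5 in FTL-poor cells. The median number of genes detected at 1500 counts was 907.5 in FTL-rich cells and 931 in FTL-poor cells. The column names fall into 2 barcode sets of 316 and 287 columns, with 239 barcodes present in both. FTL-rich cells made up 24.5% of the kept cells in set 1 and 16.7% in set 2. Along the order of the columns, cut into eighths, they made up 22.2%, 29.6%, 22.2%, 25.9%, 16.7%, 20.4%, 20.4% and 9.43%. Whether this drift has a part in the differences below was not tested, and the ratios within each set are given for the leading genes.

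**Figure D1:**
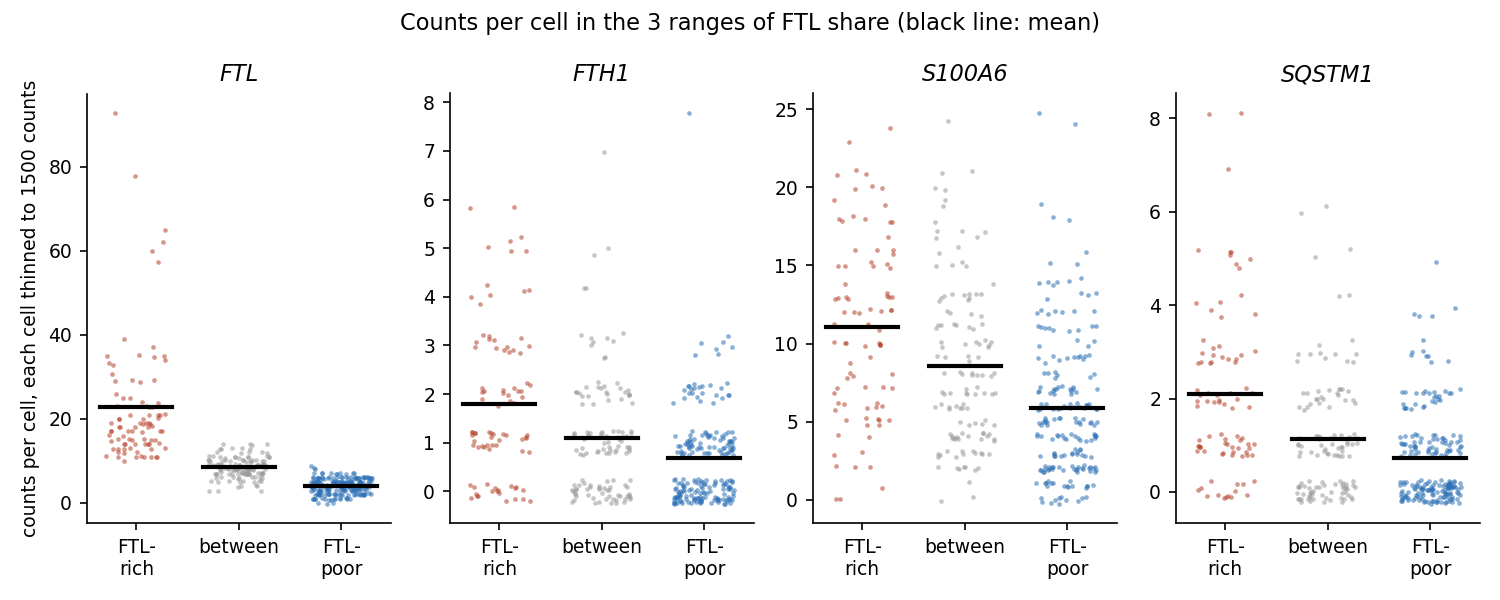
Counts per cell, each cell thinned to 1500 counts, for FTL-rich cells (90), cells between the limits (129) and FTL-poor cells (212); points are cells, moved slightly at random for display, and black lines are means. FTL does not overlap between FTL-rich and FTL-poor cells by the choice of cells, whereas FTH1 (mean 1.80 in FTL-rich cells and 0.679 in FTL-poor cells), S100A6 (11.1 and 5.85) and SQSTM1 overlap.

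Outside FTL, the transcripts that were higher in FTL-rich cells included the ferritin heavy chain, the autophagy receptor SQSTM1, other NRF2 target genes and S100 genes. The transcripts that were lower included several peptide hormone, chromaffin and noradrenergic genes, and genes of DNA replication and mitosis. For each gene, counts were summed over the cells of each kind, and genes with at least 50 counts in both kinds together were taken. Of 3170 such genes, 227 (7.16%) were at least 1.5-fold higher in FTL-rich cells and 393 (12.4%) were at least 1.5-fold lower. The median log2 ratio over all 3170 genes was -0.06. Among the 135 genes with at least 1000 CPM, 3 were higher by this fold and 7 were lower, so most of the genes past the fold were of low level.

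**Figure D2:**
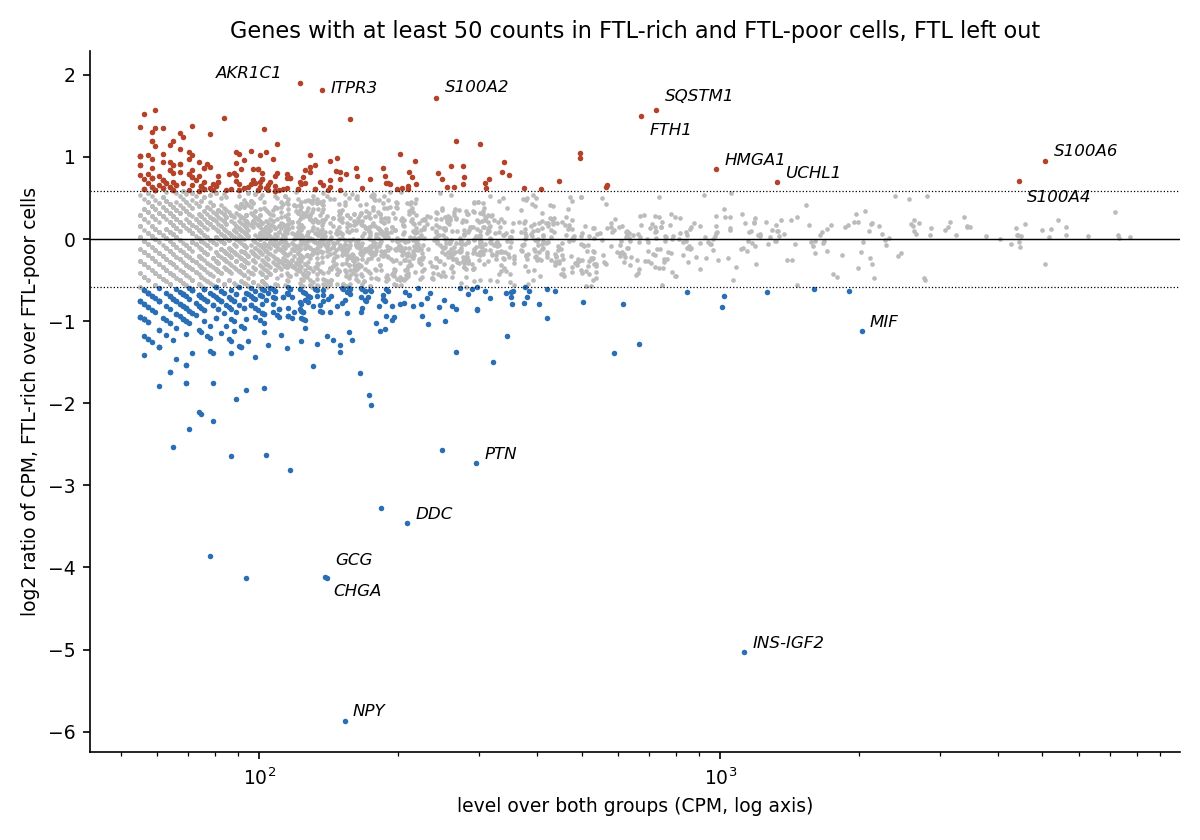
Log2 ratio of summed CPM, FTL-rich over FTL-poor cells, against the level over both kinds of cells together in CPM on a log axis; each point is one of 3170 genes, dotted lines mark 1.5-fold, and red and blue points lie beyond it. SQSTM1 (1.58), FTH1 (2.83-fold) and S100A6 (0.96) stand above genes of like level, and INS-IGF2 (-5.04) and MIF (-1.12) stand below.

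The partner subunit FTH1 was 2.83-fold higher. It reached 1235 CPM in FTL-rich cells (333 counts), 651 CPM between the limits and 437 CPM in FTL-poor cells (279 counts), with a counting interval of 1.27 to 1.73 on the log2 scale. The log2 ratio was 1.69 in barcode set 1 and 1.36 in set 2. Per cell at 1500 counts, FTH1 ran from 0 to 6 with a median of 1 in FTL-rich cells, and from 0 to 8 with a median of 0 in FTL-poor cells. The cells overlapped, and 77.8% of FTL-rich cells against 47.2% of FTL-poor cells had at least 1 FTH1 count (87.8% and 65.6% before thinning).

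The other genes of iron handling were mostly too low to compare. Of 32 listed genes of iron storage, uptake and export, 31 had a row apart from FTL and 6 passed the minimum of 50 counts. FTH1 and BLVRB, a biliverdin reductase of heme breakdown, were past 1.5-fold higher. Past it lower were 0, beside 7.16% higher and 12.4% lower over all genes. BLVRB stood at 141 CPM in FTL-rich cells and 84.5 CPM in FTL-poor cells, with a log2 ratio of 0.74 (0.10 to 1.36). The iron chaperones PCBP1 (-0.01) and PCBP2 (-0.18), the heme oxygenase HMOX2 (0.22) and the metal importer SLC39A14 (-0.12) had log2 ratios near that of all genes. TFRC, the transferrin receptor, had 14 counts (51.9 CPM) in FTL-rich cells and 20 counts (31.3 CPM) in FTL-poor cells. Its interval of -0.37 to 1.79 around 0.73 spans 0, and in barcode set 2 the value was -0.21. NCOA4, the receptor that delivers ferritin to lysosomes, had 13 counts in FTL-rich cells and 12 in FTL-poor cells (48.2 and 18.8 CPM). Among the listed iron genes 9 had 0 counts in these cells. TFRC and NCOA4 are among the 25 members under the minimum, and their values rest on these few counts.

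Genes under NRF2 were higher as a group. Of 35 listed NRF2 target genes 20 passed the minimum, of which 10 were at least 1.5-fold higher and 1 was lower, beside 7.16% and 12.4% of all genes. Their median log2 ratio was 0.58, against -0.06 over all genes, and 16 of the 20 were above 0. Summed over the list, the level was 7177 CPM in FTL-rich cells, 5252 CPM between the limits and 4429 CPM in FTL-poor cells, a log2 ratio of 0.70 (0.61 to 0.78), with 0.71 in barcode set 1 and 0.67 in set 2. Per cell at 1500 counts the list ran from 3 to 29 with a median of 10 in FTL-rich cells, and from 1 to 16 with a median of 6.5 in FTL-poor cells.

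SQSTM1, the autophagy receptor p62, binds KEAP1 and is itself an NRF2 target. It stood at 1365 CPM in FTL-rich cells (368 counts) and 457 CPM in FTL-poor cells (292 counts), a log2 ratio of 1.58 (1.35 to 1.80), with 1.60 and 1.44 in the 2 barcode sets. At 1500 counts a cell, 84.4% of FTL-rich cells and 45.3% of FTL-poor cells had a count of it (88.9% and 62.3% before thinning). Among the 20 members taken, AKR1C1 alone had a higher ratio.

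AKR1C1, an aldo-keto reductase that detoxifies carbonyls and steroids, had the highest ratio of all 3170 genes. It stood at 252 CPM in FTL-rich cells (68 counts) and 67.3 CPM in FTL-poor cells (43 counts), a log2 ratio of 1.91 (1.33 to 2.49), and 42.3% of its counts came from 10 cells. NQO1, a quinone reductase widely used as a readout of NRF2, stood at 764 CPM in FTL-rich cells and 484 CPM in FTL-poor cells, a log2 ratio of 0.66 (0.40 to 0.92). AKR1C1 and NQO1 had ratios of the same sign in both barcode sets.

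Among the other targets past the fold, the epoxide hydrolase EPHX1 had a log2 ratio of 1.38 (0.63 to 2.13) and the sulfiredoxin SRXN1, which repairs oxidised peroxiredoxins, had 1.06 (0.44 to 1.67). The partner factor MAFG (0.79), glutathione reductase GSR (0.73), the aldose reductase AKR1B1 (0.68) and transaldolase TALDO1 (0.67) followed. The thioredoxin system stayed within the fold, with TXN at 0.43 (0.16 to 0.69) and TXNRD1 at 0.40 (0.09 to 0.70), as did GSTP1 at 0.49 and KEAP1 at 0.50. PRDX1 (-0.17), ESD (-0.23) and PGD (-0.24) were below 0, and UGDH (-0.67) was the member past the fold lower. The intervals of GSR and UGDH span 0. SLC7A11, the cystine transporter, had 12 counts in FTL-rich cells and 7 in FTL-poor cells and did not reach the minimum.

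Stretches of 3 promoters are shown because they hold the letters of the antioxidant response element, the site that NRF2 binds with a small MAF partner. The searched core was TGACNNNGC on either strand in the 250 bases before each RefSeq start (GRCh38.p14), and capitals mark the match.
TXNRD1 (chr12:104215670-104215699, plus strand): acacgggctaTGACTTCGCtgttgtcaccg
EPHX1 (chr1:225825266-225825295, plus strand): tgagattggcTGACTTGGCaggactgtgca
GSTP1 (chr11:67583736-67583765, plus strand): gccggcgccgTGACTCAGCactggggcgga
Of the 20 NRF2 targets that passed the minimum, 17 had a promoter in the table and 6 held the core, against 13.2% of 27305 genes. Among those with the core, EPHX1 was past the fold higher. TXNRD1, GSTP1, KEAP1 and PGD were within the fold, PGD below 0. SQSTM1, AKR1C1, SRXN1, NQO1, MAFG, AKR1B1 and TALDO1, all past the fold higher, had a promoter without the core. The FTL window had 0 matches, which says only that these letters are not in those bases. A match is a description of the letters and not a measured binding site.

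**Figure D3:**
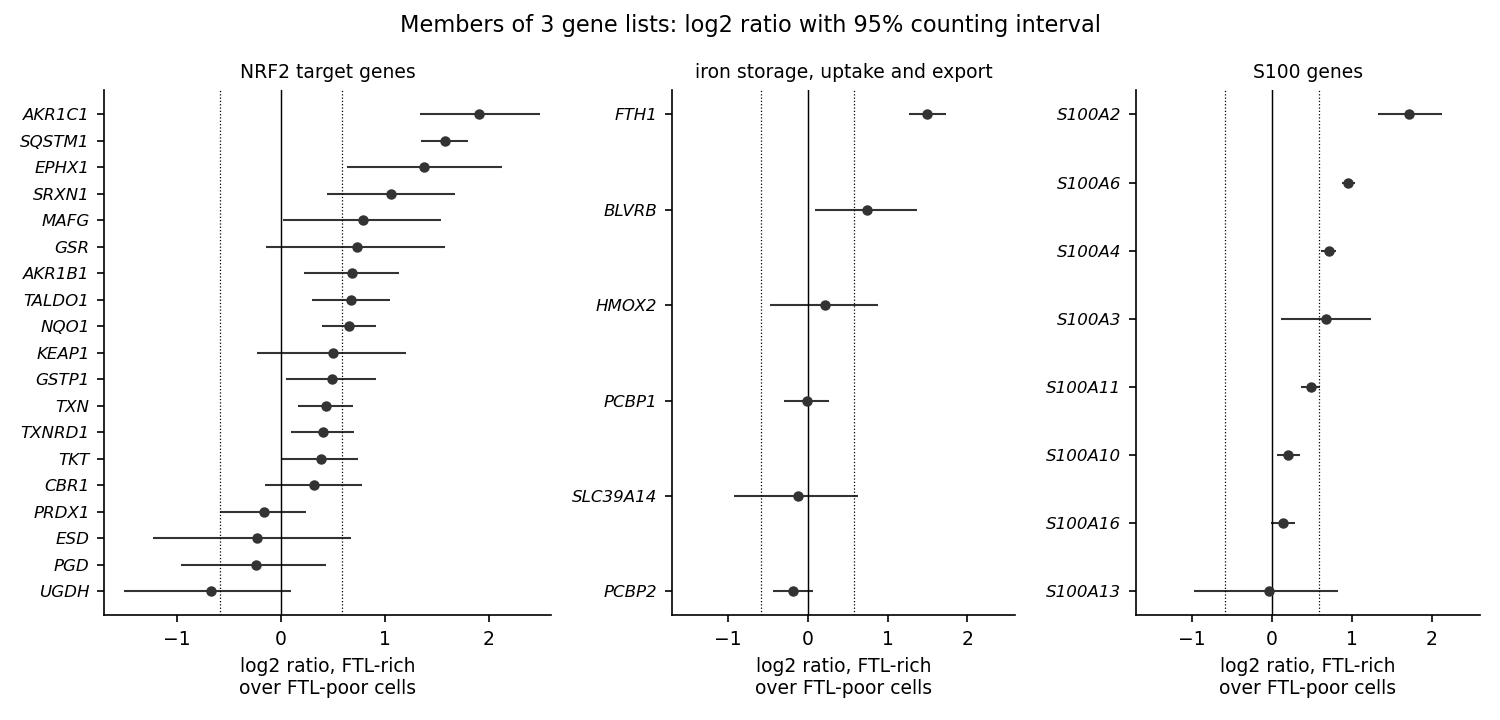
Log2 ratio, FTL-rich over FTL-poor cells, of NRF2 target genes, genes of iron storage, uptake and export, and S100 genes; points are genes that passed 50 counts (1 NRF2 target is not shown), bars are exact 95% intervals for counting error and dotted lines mark 1.5-fold. FTH1 (2.83-fold), SQSTM1 (1.58 on the log2 scale) and AKR1C1 (1.91) lie beyond the upper line, and PCBP1 (-0.01) lies at 0.

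S100 genes, which encode small calcium-binding proteins, were also at a higher level. Of 19 listed genes 8 passed the minimum and 9 had 0 counts. Of the 8, 4 were past the fold higher and 0 lower, beside 7.16% and 12.4% of all genes. The median log2 ratio was 0.58. Their summed level was 21924 CPM in FTL-rich cells and 14034 CPM in FTL-poor cells, a log2 ratio of 0.64 (0.60 to 0.69). S100A6, the calcyclin given with the rule as a companion of FTL, stood at 7685 CPM in FTL-rich cells, 5807 CPM between the limits and 3962 CPM in FTL-poor cells, a log2 ratio of 0.96 (0.87 to 1.04). Per cell at 1500 counts it ran from 0 to 24 (median 11) in FTL-rich cells and from 0 to 25 (median 5) in FTL-poor cells, so the ranges overlapped almost fully. The log2 ratio was 1.08 in barcode set 1 and 0.71 in set 2.

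S100A4, a family member linked to cell motility, stood at 6109 CPM in FTL-rich cells and 3737 CPM in FTL-poor cells, a log2 ratio of 0.71 (0.62 to 0.80). S100A2 stood at 475 CPM in FTL-rich cells and 144 CPM in FTL-poor cells, a log2 ratio of 1.72 (1.32 to 2.12), with counts in 44 of the 90 FTL-rich cells and 51 of the 212 FTL-poor cells. S100A3 had 0.68 and S100A11 had 0.48 (0.36 to 0.61), the second within the fold. S100A10 (0.20), S100A16 (0.14) and S100A13 (-0.04) lay closer to the median of all genes.

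Other genes at the top of the order had few counts and belonged to none of the lists described here. ITPR3, a calcium release channel of the endoplasmic reticulum, stood at 274 CPM in FTL-rich cells and 78.3 CPM in FTL-poor cells, a log2 ratio of 1.81 (1.27 to 2.36). HCFC1R1, which binds the transcriptional regulator HCFC1, stood at 286 CPM in FTL-rich cells and 103 CPM in FTL-poor cells, a log2 ratio of 1.47 (0.97 to 1.96). FBXL16, an F-box protein, had 1.57 (0.74 to 2.40), the neurotensin receptor NTSR1 had 1.53 (0.68 to 2.39), and FAM195A (1.47), IFITM10 (1.36) and FAM178A (1.35) completed the 12 highest. FAM195A was 2.18 in barcode set 1 and 0.44 in set 2.

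Among genes of at least 1000 CPM, UCHL1, a ubiquitin hydrolase abundant in neurons, stood at 1810 CPM in FTL-rich cells and 1121 CPM in FTL-poor cells, a log2 ratio of 0.69 (0.52 to 0.86). The metallothionein MT2A had 0.56 (0.37 to 0.75), with 0.28 in barcode set 1 and 0.92 in set 2. Of 12 listed metallothioneins, which bind zinc and copper, 2 passed the minimum, with a median of 0.51. Of these, 0 were past the fold, beside 7.16% higher and 12.4% lower over all genes. SH3BGRL3 (0.52), RPL35A (0.52) and the ER chaperone calreticulin, CALR (0.42), were within the fold.

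Several secreted peptides were far lower in FTL-rich cells. INS-IGF2, a row that the table shares with INS and that covers the insulin and IGF2 read-through transcript, stood at 48.2 CPM in FTL-rich cells (13 counts), 259 CPM between the limits and 1581 CPM in FTL-poor cells (1010 counts). Its log2 ratio was -5.04 (-5.95 to -4.25), with -5.41 in barcode set 1 and -4.64 in set 2. Its counts were concentrated, with 58.7% of them in 10 cells. Of the FTL-rich cells 0 of 90 held 3 or more counts of it, which allows a share of up to 3.33% by the limit of 3 counts and 4.02% by the exact interval, against 39 of the 212 FTL-poor cells (18.4%, 13.4% to 24.3%). At 1500 counts a cell, 7.78% (3.18% to 15.4%) of FTL-rich cells and 31.6% (25.4% to 38.3%) of FTL-poor cells had a count of it.

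NPY, the sympathetic cotransmitter neuropeptide Y, had 1 count in FTL-rich cells and 138 counts in FTL-poor cells, a log2 ratio of -5.86 (-11.18 to -3.36). GCG, the glucagon precursor, had 3 counts in FTL-rich cells and 124 in FTL-poor cells, a log2 ratio of -4.12 (-6.42 to -2.54), and 69.3% of its counts lay in 10 cells. CHGA, chromogranin A of secretory granules, had 3 counts in FTL-rich cells and 123 in FTL-poor cells, and 90.5% of its counts lay in 10 cells. These genes were seen in few cells of either kind, with NPY in 1 FTL-rich and 36 FTL-poor cells and CHGA in 3 FTL-rich and 19 FTL-poor cells.

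DDC, the decarboxylase that makes dopamine, stood at 26.0 CPM in FTL-rich cells and 286 CPM in FTL-poor cells, a log2 ratio of -3.46 (-4.80 to -2.39). PTN, the growth factor pleiotrophin, stood at 59.3 CPM in FTL-rich cells and 395 CPM in FTL-poor cells, a log2 ratio of -2.73 (-3.56 to -2.01). The complement component C7 had -3.27, the retinoic acid binder CRABP1 had -3.86, the adaptor SHD had -4.13 and the nicotinic receptor subunit CHRNA3 had -2.64. FAM167A (-2.81) and the collectin COLEC11 (-2.63) completed the 12 lowest. NPY and CHRNA3 belong to a list of 24 sympathetic neuron and granin genes that was not lower as a whole. Of its members 10 passed the minimum, with 1 past the fold higher, UCHL1, and 3 lower, beside 7.16% and 12.4% of all genes. Its median log2 ratio was -0.07, and its summed log2 ratio was 0.04 (-0.06 to 0.14).

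Of 25 listed genes of the adrenergic state, the sympathoblast-like programme of neuroblastoma lines, 8 passed the minimum. Of these, 0 were past the fold higher and 6 were lower, beside 7.16% and 12.4% of all genes. The median log2 ratio was -1.05. The summed level was 1154 CPM in FTL-rich cells and 2049 CPM in FTL-poor cells, a log2 ratio of -0.83 (-1.01 to -0.65). Beside CHGA and DDC, the 6 included the receptor RET (-2.22) and the transcription factors GATA3 (-1.29, with 74.2 CPM in FTL-rich cells and 182 CPM in FTL-poor cells) and GATA2 (-0.81, with 141 CPM in FTL-rich cells and 247 CPM in FTL-poor cells). HAND2 (-0.25) and TBX2 (0.42) were within the fold. The opposite, mesenchymal list had 9 members taken, 0 past the fold in either direction and a median log2 ratio of 0.05, VIM standing at 5749 CPM in FTL-rich cells and 5562 CPM in FTL-poor cells.

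The cells with INS-IGF2 carried part of these values. Leaving out every cell with 3 or more INS-IGF2 counts, an alternative chosen after the data were seen, kept all 90 FTL-rich cells and 173 of the FTL-poor cells. CHGA then had a log2 ratio of 0.19. The summed log2 ratio of the adrenergic list was -0.37, beside -0.83 with all cells. NPY stood at -5.09, GCG at -3.16, DDC at -2.55 and PTN at -2.03. The higher genes moved less, with FTH1 at 1.36, SQSTM1 at 1.48, AKR1C1 at 1.97, S100A6 at 0.77 and the NRF2 list at 0.64. Of the 2827 genes that then passed the minimum, 157 were past the fold higher and 324 lower, beside 227 and 393 of 3170 with all cells.

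Among genes of at least 1000 CPM over both kinds of cells, INS-IGF2 had the lowest ratio. MIF, a secreted cytokine and tautomerase, came next, with 1113 CPM in FTL-rich cells and 2413 CPM in FTL-poor cells, a log2 ratio of -1.12 (-1.30 to -0.94). The argininosuccinate synthase ASS1 stood at 653 CPM in FTL-rich cells and 1162 CPM in FTL-poor cells, a log2 ratio of -0.83 (-1.08 to -0.59). SSR2 of the translocon (-0.69), PTMA, a chromatin-associated acidic protein on a joint row (-0.65), the G-protein subunit GNAS (-0.63) and the matrix protein SPARC (-0.60) were also past the fold. HMGB2, a chromatin protein of dividing cells, had -0.56, with -0.96 in barcode set 1 and -0.08 in set 2.

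Genes of the cell cycle were lower in FTL-rich cells. Of 37 listed genes of DNA replication 23 passed the minimum. Of these, 0 were past the fold higher and 11 lower, beside 7.16% and 12.4% of all genes. On the log2 scale 0 of the 23 were above 0, and the median was -0.57. Their summed level was 2741 CPM in FTL-rich cells and 4315 CPM in FTL-poor cells, a log2 ratio of -0.65 (-0.77 to -0.54). The helicase subunits MCM4 (-1.55) and MCM7 (-1.38), the checkpoint mediator CLSPN (-1.62) and thymidylate synthase TYMS (-0.86) were past the fold, and the sliding clamp PCNA (-0.56) and thymidine kinase TK1 (-0.29) were not.

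Of 42 listed genes of mitosis 27 passed the minimum. Of these, 0 were past the fold higher and 14 lower, beside 7.16% and 12.4% of all genes. Their median log2 ratio was -0.59. The summed level of the list was 5927 CPM in FTL-rich cells and 8064 CPM in FTL-poor cells, a log2 ratio of -0.44 (-0.53 to -0.36). The kinase CDK1 (-1.76), the kinesin KIF20A (-1.39), securin PTTG1 (-0.95) and the ubiquitin-conjugating UBE2C (-0.78) were past it, whereas MKI67 (-0.31) and BIRC5 (0.20) were not. The summed mitosis list was -0.68 in barcode set 1 and -0.14 in set 2, and the replication list -0.72 and -0.50. Over both lists together, 79 genes, the counts per cell at a depth of 1500 ran from 1 to 46 (median 12.5) in FTL-rich cells and from 2 to 44 (median 18) in FTL-poor cells. Of the FTL-rich cells 26 of 90 (28.9%, 19.8% to 39.4%) lay above the median of all kept cells, against 123 of 212 FTL-poor cells (58.0%, 51.1% to 64.7%).

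FTL-rich and FTL-poor cells were also compared within strata cut at the median cell cycle count, an alternative added after the data were seen. Among cells at or below the median, 64 FTL-rich and 89 FTL-poor, the log2 ratio of FTH1 was 1.49, that of SQSTM1 1.68, that of S100A6 0.85 and that of the NRF2 list 0.78. Among cells above it, 26 FTL-rich and 123 FTL-poor, the values were 1.21, 1.18, 1.07 and 0.53 in the same order. These 4 values were higher in FTL-rich cells in both strata. Cell cycle counts were not matched within a stratum, and a part of the cell cycle in these ratios was not tested. The summed mesenchymal list was 0.23 at or below the median and -0.20 above it, and VIM was 0.33 and -0.39. The summed replication list was -0.64 and -0.37, beside -0.65 with all cells, and the summed mitosis list -0.03 and 0.07, beside -0.44. The strata were cut on the counts of these 2 lists.

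**Figure D4:**
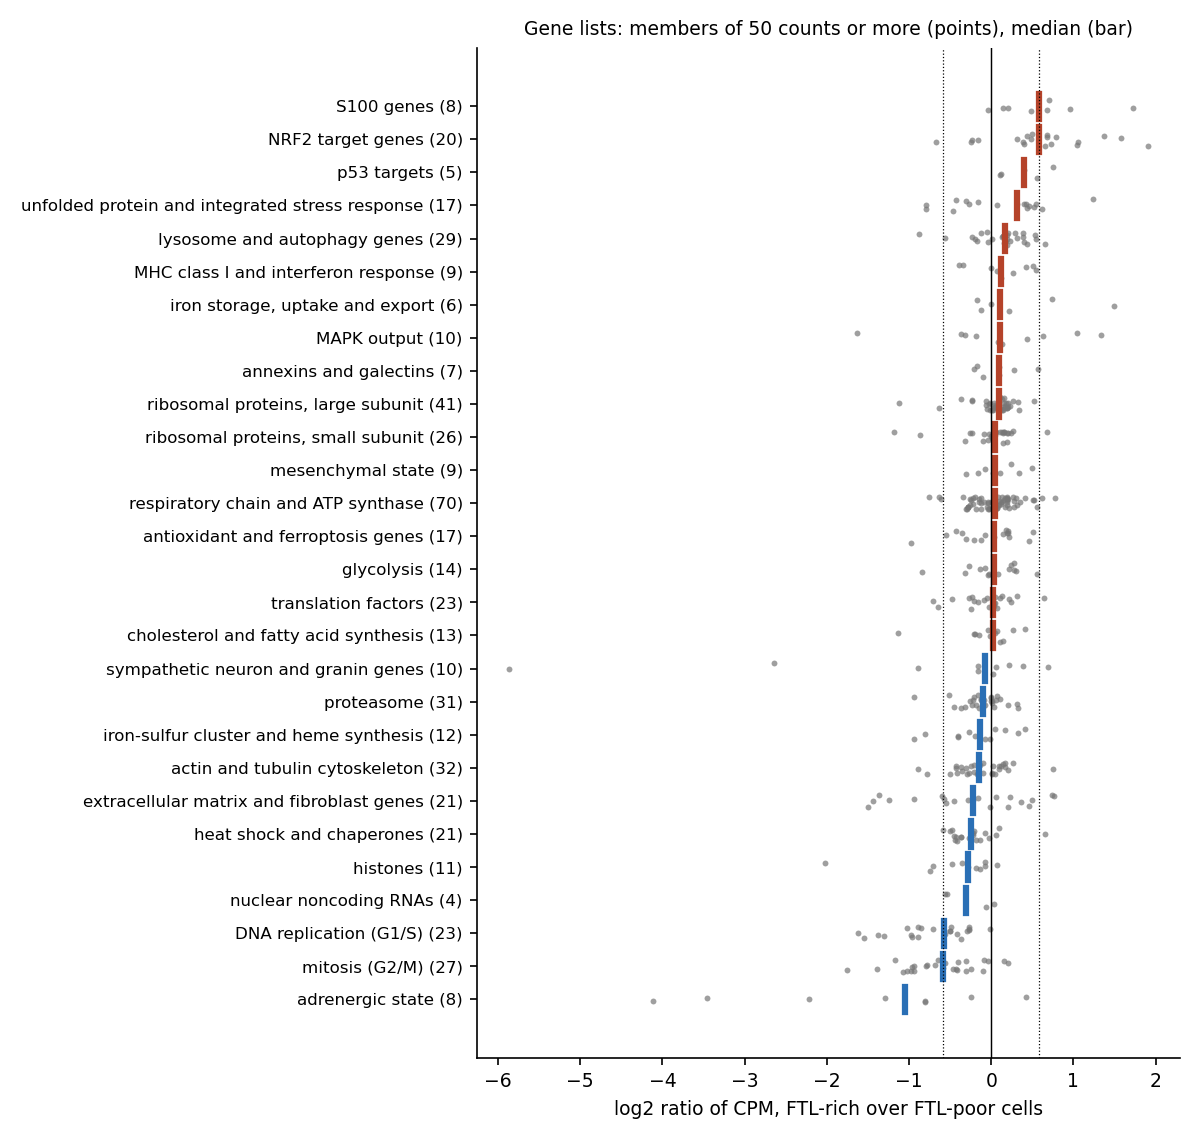
Log2 ratio, FTL-rich over FTL-poor cells, of the genes that passed 50 counts in each list with at least 4 such genes (number in brackets); points are genes, coloured bars are list medians, and dotted lines mark 1.5-fold. NRF2 targets and S100 genes (both 0.58) lie to the right, and the adrenergic state (-1.05), mitosis (-0.59) and DNA replication (-0.57) to the left.

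Most other lists lay near the median of all genes, of which 7.16% were past the fold higher and 12.4% lower. Of 41 large-subunit ribosomal protein genes taken, 0 were past the fold higher and 2 lower, with a median of 0.09, and of 26 of the small subunit 1 was higher and 2 lower, with a median of 0.05. Of 70 genes of the respiratory chain and ATP synthase 2 were higher and 3 lower, with a median of 0.05. The 29 lysosome and autophagy genes taken had a median of 0.17 with 1 past the fold each way, so the ratio of SQSTM1 was not shared by that list. The 17 antioxidant and ferroptosis genes taken outside NRF2 targets had a median of 0.04 with 0 higher and 1 lower, and GPX4, the lipid peroxidase, stood at 0.04. The lower member was the mitochondrial peroxiredoxin PRDX3 (-0.98). The iron-sulfur cluster and heme synthesis list had 12 taken, 0 higher and 2 lower, with a median of -0.14. The unfolded protein and integrated stress response list had 17 taken, 2 higher and 2 lower, with a median of 0.31, and its summed log2 ratio was -0.03 in barcode set 1 and 0.40 in set 2. The p53 targets had 5 taken, 1 higher and 0 lower, with a median of 0.40.

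Most markers of other cell types had 0 counts. Of 19 macrophage and immune markers 15 had 0 counts, and the list summed to 92.7 CPM in FTL-rich cells and 83.0 CPM in FTL-poor cells. CD68, a lysosomal protein and the 1 immune marker that passed the minimum, stood at 89.0 CPM in FTL-rich cells and 45.4 CPM in FTL-poor cells. Of 10 endothelial markers 7 had 0 counts, and the list held 2 counts (7.42 CPM) in FTL-rich cells and 31 counts (48.5 CPM) in FTL-poor cells, a log2 ratio of -2.71 (-5.82 to -0.74). All but 2 of the 31 were of FLT1, a VEGF receptor, and PECAM1 had 1. Of 12 Schwann cell precursor markers 8 had 0, and the list summed to 40.8 CPM in FTL-rich cells and 59.5 CPM in FTL-poor cells. Their part in the results was not tested. All 7 erythroid markers with a row had 0 counts, a count that allows up to 11.1 CPM in FTL-rich cells and 4.70 CPM in FTL-poor cells (3 counts over each kind).

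To include the cells between the limits, all 431 cells were ordered by FTL share and cut into 10 bins of 43 or 44 cells. From the lowest to the highest bin, FTH1 stood at 456, 450, 517, 370, 376, 475, 737, 877, 976 and 1508 CPM. It had no trend over bins 1 to 5 and from bin 6 on each bin stood above the one before. SQSTM1 stood at 417 CPM in bin 1, 518 CPM in bin 5 and 1478 CPM in bin 10. The NRF2 list stood at 4389, 4747 and 7842 CPM in the same bins, and S100A6 at 3005, 4254 and 7918 CPM. INS-IGF2 ran the other way, at 2383, 894 and 15.4 CPM, and the DNA replication list at 4515, 4571 and 2370 CPM. MIF stood at 3406 CPM in bin 1 and 1139 CPM in bin 10.

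**Figure D5:**
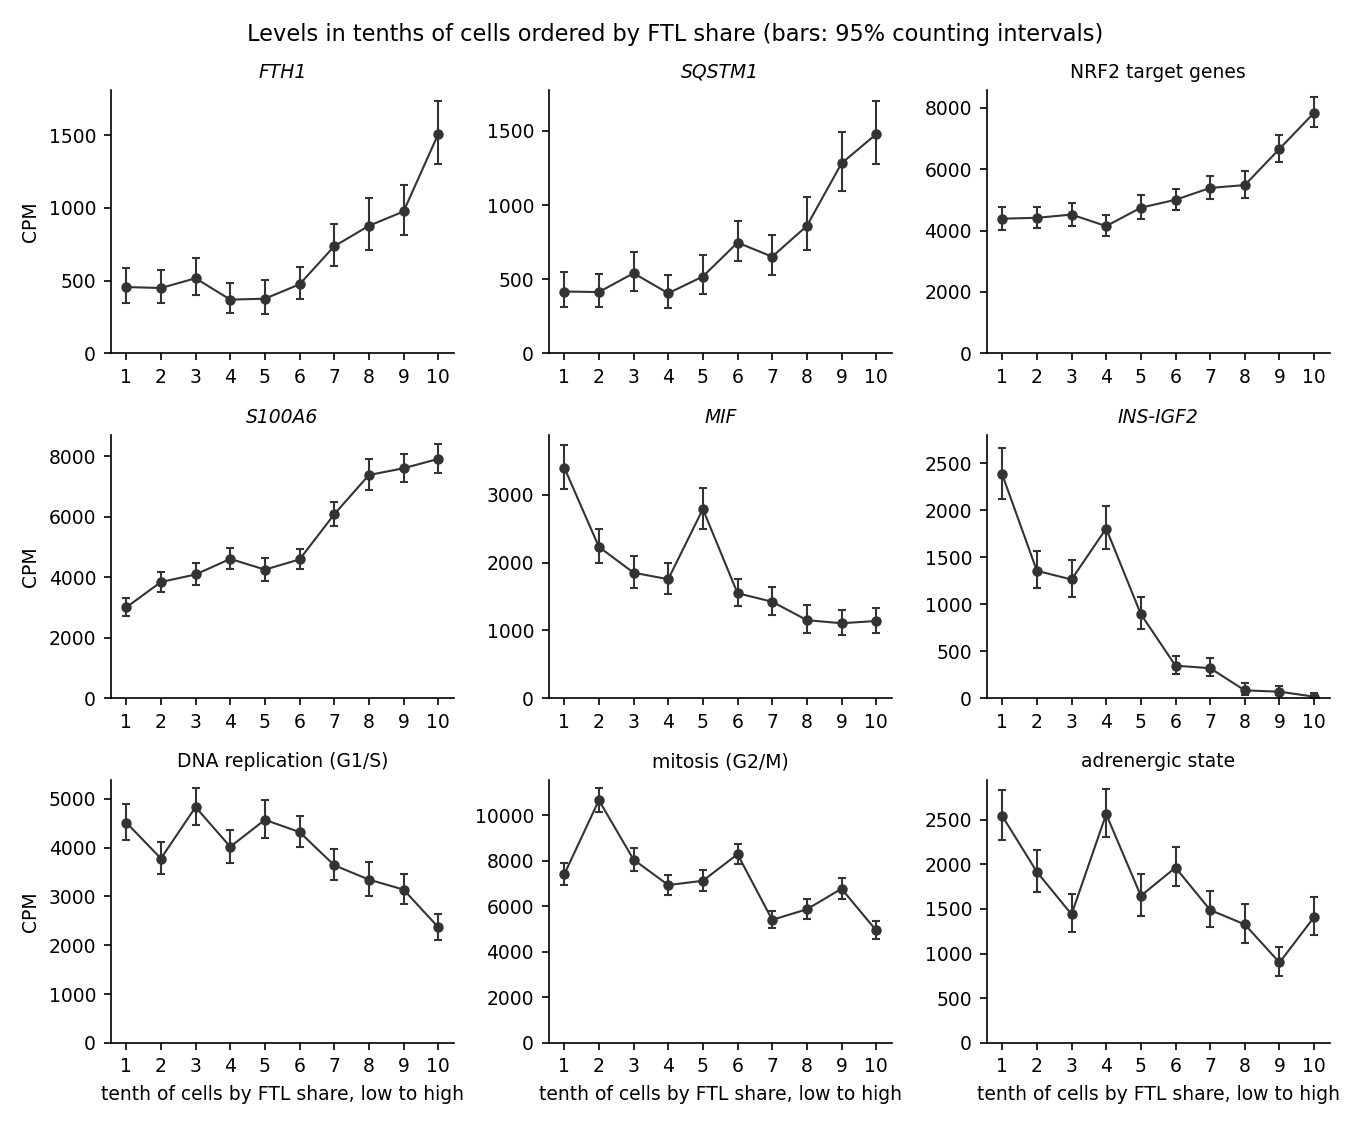
Level in CPM in 10 bins of the 431 cells ordered by FTL share, from the lowest (left) to the highest (right); bars are exact 95% intervals for counting error. FTH1 stands at 456 CPM in the lowest and 1508 CPM in the highest bin, and INS-IGF2 at 2383 and 15.4 CPM.

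Over the 431 thinned cells, which share depth by construction but also share the table's unknown samples, the genes whose counts followed FTL most closely included S100A6 (Spearman's rho 0.39), S100A4 (0.32), FTH1 (0.31), SQSTM1 (0.30) and the chromatin protein HMGA1 (0.28). The lowest were INS-IGF2 (-0.27), the procollagen enhancer PCOLCE (-0.24), MIF (-0.23) and the pentraxin PTX3 (-0.23). These coefficients are small and describe sparse counts. HMGA1 stood at 1428 CPM in FTL-rich cells and 792 CPM in FTL-poor cells, and PCOLCE at 334 CPM in FTL-rich cells and 806 CPM in FTL-poor cells.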

How the data were processed

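Single-cell RNA was measured in SK-N-AS cells by MARS-seq. The authors deposited 1 table of unnormalized counts, whole numbers for each gene in each cell, as its values show. Per the submitters' processing notes, reads were aligned to the build hg19 with Bowtie2 2.1.0. Not given in the sources used here are how reads were counted, on which annotation, how cells were filtered, and whether a count is a molecule or a read. The row called unknown (2 counts, 0.00013%) was dropped.

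Totals ran from 1000 to 42404 counts per cell (median 2106). Cells under 1500 counts (172, 28.5%) were left out, and no doublet was called. Counts were summed per gene over FTL-rich and FTL-poor cells and divided by the summed total to give CPM. Ratios carry exact conditional binomial intervals, levels exact Poisson intervals and shares Clopper-Pearson intervals (95%). Those of ratios and levels cover counting error only, and those of shares treat cells as independent draws. Genes with fewer than 50 counts in both kinds together were not compared. Thinning drew 1500 counts per cell without replacement (seed 1). Rows that join several genes are printed under 1 symbol.

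Named genes were the 12 highest and 12 lowest ratios, the 8 highest and 8 lowest among genes of at least 1000 CPM, the 6 highest and 4 lowest correlations with FTL, and up to 4 abundant members of each described list. Some genes that fall under these rules are counted in the lists but not reported by name here. Other members and genes were named after their values were seen. The division of cells and the gene lists were chosen with earlier results of these data known. Python 3.11.15, numpy 2.4.6, pandas 2.3.3 and scipy 1.17.1 were used, and the ratio script was tested on simulated data.

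Alternatives were other limits, other gene minimums and folds, each barcode set alone, thinned cells, other totals, and cells chosen on 1 of 2 equal random parts of the counts. Leaving out cells with 3 or more INS-IGF2 counts and splitting cells at the median cell cycle count were added after the data were seen.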

Additional observations from a re-analysis of the deposited data

How the results depend on the processing

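No paired analysis was possible because the columns carry no sample or replicate. With 1 sample, the spread between cultures or plates is unknown, and depth limits genes under 50 counts. FTH1, 2.83-fold higher as reported, had a log2 ratio of 1.24 between the 144 cells of highest and 144 of lowest FTL share and 1.21 in cells above the median cell cycle count. The log2 ratio of S100A6, 0.96 as reported, was 1.08 in barcode set 1, 0.71 in set 2, 1.06 with stricter limits, 0.85 and 1.07 at or below and above the median cell cycle count, and 0.77 without INS-IGF2 cells.

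The count of genes past the fold, 227 higher and 393 lower, moved with the fold itself (524 and 847 at the lower fold tried, 42 and 99 at 2-fold) and with how many genes could enter. It was 30 and 49 of 784 genes with a minimum of 200 counts. With at least 1 count in each kind of cells as the only minimum it was 2195 and 2194 of 10145 genes. It was 114 and 212 of 1699 genes in thinned cells, 116 and 210 of 1715 in barcode set 1, and 141 and 255 of 1737 in set 2. With cells chosen on 1 of 2 random parts of the counts it was 126 and 222 of 1678 genes. In cells at or below the median cell cycle count it was 139 and 187 of 1663 genes, and in cells above it 131 and 298 of 1788. In these settings with fewer cells or counts, fewer genes passed the minimum than the 3170 of the reported comparison. Whether anything else moved the counts was not tested.

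Of values past 1.5-fold as reported, these took the opposite sign: CD68 (-0.44) and TFRC (-0.22) with that random part, TFRC in barcode set 2 (-0.21), CHGA without INS-IGF2 cells (0.19) and UBE2C in cells at or below the median cell cycle count (0.13). Over the 145 named genes and all their alternatives, 210 of 2313 values had the opposite sign, 197 of them for genes whose reported interval spans 0. The other 13 included HMGB2 in cells above the median cell cycle count (0.05). Over the summed ratios of 32 lists, 43 of 510 values had the opposite sign, 37 of them for lists whose interval spans 0. The other 6 included mitosis (0.07) and metallothioneins (-0.02) above the median cell cycle count and the unfolded protein list in barcode set 1 (-0.03).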

Other observations

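Of 35 listed genes of the extracellular matrix, 21 passed the minimum, 2 were past 1.5-fold higher in FTL-rich cells and 6 lower, beside 7.16% and 12.4% of all genes, with a median log2 ratio of -0.22. TIMP2, an inhibitor of matrix metalloproteinases, stood at 389 CPM in FTL-rich cells and 230.1 CPM in FTL-poor cells, and PLAT, tissue plasminogen activator, at 438 CPM in FTL-rich cells and 263 CPM in FTL-poor cells. The collagen chains COL1A1 (-1.50), COL5A1 (-1.44) and COL3A1 (-0.95) and the proteoglycan DCN (-1.24) were on the lower side. COL1A1 stood at 141 CPM in FTL-rich cells and 398 CPM in FTL-poor cells.

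Of 23 listed genes of MAP kinase output, 10 passed the minimum, 3 were higher and 1 lower, beside 7.16% and 12.4% of all genes, with a median log2 ratio of 0.10. Members named after their values were seen were the MAP kinase phosphatase DUSP4, at 178 CPM in FTL-rich cells and 70.5 CPM in FTL-poor cells (log2 ratio 1.34, 0.72 to 1.96), and the transcription factor JUN (1.04). The transcription factor CEBPB (1.24), also named after its value was seen, belongs to the unfolded protein and integrated stress response list. The cyclin CCND1 was lower, at 66.8 CPM in FTL-rich cells and 207 CPM in FTL-poor cells (-1.63, -2.43 to -0.91). MFI2, melanotransferrin, an iron-binding relative of transferrin, had 48 counts in FTL-rich cells and 51 in FTL-poor cells (178 and 79.8 CPM, log2 ratio 1.16, 0.56 to 1.75). SERPINB2, an inhibitor of plasminogen activators, stood at 493 CPM in FTL-rich cells and 221 CPM in FTL-poor cells, and FAH, the last enzyme of tyrosine breakdown, at 441 and 193 CPM. IGFBP2, a binder of insulin-like growth factors, stood at 59.3 CPM in FTL-rich cells and 221 CPM in FTL-poor cells.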
